A study of Homo sapiens with 10 samples.

Results

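Protein disulfide isomerases and the oxidases that recharge them make and rearrange the disulfide bonds of proteins that fold in the endoplasmic reticulum (ER). Described here are 10 genes of this system: the isomerases P4HB, PDIA3, PDIA4, PDIA5, PDIA6 and TXNDC5, the thioredoxin-fold protein ERP44, the reductase DNAJC10, and the oxidases ERO1A and ERO1B. They were chosen by gene symbol, and each has 1 row among the 22626 rows of the deposited count table. RNA was sequenced from ARPE-19, an established line of human retinal pigment epithelial (RPE) cells. Cells of both groups were grown in DMEM with serum and kept for 48 h in the medium of their group. The control group (n = 5) had 5.5 mM glucose plus 32 mM mannitol, and the high glucose group (n = 5) had 37.5 mM glucose, with mannitol not mentioned in its labels. Effects of glucose and of mannitol cannot be told apart in this design. The labels do not say whether libraries of 1 group came from separate cultures, so that p-values measure the spread between these libraries, which may be technical.

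An isomerase passes its own disulfide to a folding protein, or reduces and reshuffles wrong ones, through active sites with a pair of cysteines. The ERO1 flavoenzymes then reoxidize the isomerase, P4HB above all, and hand the electrons to oxygen, which yields hydrogen peroxide. The RPE is a secretory epithelium that lays down collagens and laminins on Bruch's membrane, proteins whose folding depends on this system.

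Total counts per library were 33056923, 45864176, 41468270, 33039260 and 44373294 in control replicates 1 to 5, and 39867119, 40506465, 44400714, 32504910 and 32448991 in the deposited columns HG_1 to HG_5. Between 157 and 274 reads per library fell on ERO1B, the least counted of the 10 genes, and between 33254 and 53530 on P4HB. Values per library are CPM, counts scaled by edgeR to library sizes after TMM. A count of 0 allows up to 3 counts, or between 0.0654 and 0.0925 CPM, and such limits cover counting error only. Libraries HG_1 and control replicate 2 stood apart from the other 8. Log2 CPM rose by 0.184 and 0.166 for every 10 percentage points of transcript GC content in HG_1 and control replicate 2, and the slopes of the others lay between -0.0910 and -0.00407. Because 1 library of each group was affected, calls that turned on single libraries are also given without both and with the GC and length trend removed.

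The group labels were checked with TXNIP and ARRDC4, arrestin-domain genes that glucose induces. TXNIP was at 1.21, 1.23, 0.818, 0.817 and 0.809 CPM in control replicates 1 to 5 and at 7.59, 9.07, 12.9, 8.63 and 5.38 in HG_1 to HG_5, and no library of either group reached the other (log2 fold change 3.15, SE 0.249, edgeR adjusted p = 5.55e-05). ARRDC4 was likewise higher in 5 of 5 high glucose libraries (0.74, SE 0.135, edgeR adjusted p = 0.00414). Of 9 RPE markers, MITF (51.5 to 64.9 CPM in the control group) and OTX2 (92.5 to 102) were abundant and RLBP1 was at 8.67 to 12.8. PMEL, a melanosome gene, was lower in high glucose, at 3.35 to 4.35 CPM in the controls and 1.92 to 2.62 in HG_1 to HG_5 (-0.72, SE 0.149, edgeR adjusted p = 0.00854). OTX2 was at 87.0 to 90.3 CPM in high glucose, below all controls, and did not pass (edgeR adjusted p = 0.0814), nor did the other RPE markers that were tested. The defining visual cycle gene RPE65 had reads in 1 library (0.135 CPM) and TTR was at 0 in all 10, so that these markers of the mature tissue were absent or nearly so. BEST1 was at 264 and 552 CPM in control replicates 1 and 4 and at 0.577 to 7.79 in the other 8 libraries, and this one gene set the summed level of the RPE markers, 445 and 718 CPM in those replicates against 150.4 to 175 elsewhere. Of the 4 genes listed as epithelial, KRT8, KRT18 and CDH2 (N-cadherin) were lower in high glucose, and CDH1 (E-cadherin) had at most 0.194 CPM. Among the markers of other cell types, CDH5 was at 0 in every library and PTPRC, PECAM1 and GFAP had at most 0.168 CPM. Far above these were CD68 (54.5 to 81.1 against 102 to 143 CPM), a lysosomal protein used as a macrophage marker, and COL1A1 (40.1 to 53.8 against 16.4 to 20.7), the fibroblast marker. CD68 was the most abundant of these 6, whose summed level was 108, 126, 119, 111 and 114 CPM in control replicates 1 to 5 and 163, 126, 134, 120.3 and 119 in HG_1 to HG_5. The part of these markers in the results below was not tested, and in bulk RNA fewer cells of a type and less RNA per cell cannot be told apart.

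Promoter windows were available from RefSeq (GRCh38.p14) for 9 of the 10 genes, and none for PDIA3. The windows, 250 bases before to 50 after a transcript start, were searched on both strands for 4 motifs through which the unfolded protein response is known to act on ER genes. ERSE, the ER stress response element, was CCAAT and CCACG with any 9 bases between them, and ERSE-II was ATTGG and CCACG with any 1 base between them. UPRE, bound by XBP1 and ATF6, was TGACGTGG, and the C/EBP-ATF composite element TGATGNAAT. The reverse complement of UPRE and both ERSE motifs share the letters CCACG. Among all 35116 promoters searched, 0.0769% held ERSE, 0.0541% ERSE-II, 0.729% UPRE and 0.991% the composite element. These shares are per window, while the counts that follow are per gene, and PDIA4, PDIA6 and TXNDC5 had more than 1 window each. ERSE occurred in 2 of the 9 genes, as written in PDIA6 (bases -86 to -68 from the start) and as its reverse complement in ERO1B (-243 to -225). UPRE occurred in 2 others, in TXNDC5 (-92 to -85) and, as its reverse complement and inside an annotated exon, in DNAJC10 (-125 to -118). No window of P4HB, PDIA4, PDIA5, ERP44 or ERO1A held any of the 4 motifs, which says only that these letters are not in these windows.

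Windows with a motif outside annotated exons are given 5′ to 3′ on the gene's strand, with the motif in capitals. A window of PDIA4, the gene that fell most, is given with them and has no motif. Each runs up to the first base that GENCODE release 29 annotates as exon. Those of PDIA6 and TXNDC5 lie inside the annotated span of their gene, not before it. The window of ERO1A is not printed because all of its 250 bases are annotated as exon. Other windows of PDIA4 (chr7:149025310-149025559), PDIA6 (chr2:10832486-10832735) and TXNDC5 (chr6:7910789-7911038) held none of the 4 motifs and are not printed.
PDIA6, minus strand, chr2:10812845-10813035: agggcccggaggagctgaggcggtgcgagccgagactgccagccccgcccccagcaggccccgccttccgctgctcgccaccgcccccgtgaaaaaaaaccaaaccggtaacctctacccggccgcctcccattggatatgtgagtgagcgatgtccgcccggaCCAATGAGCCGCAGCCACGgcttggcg
ERO1B, minus strand, chr1:236281986-236282208: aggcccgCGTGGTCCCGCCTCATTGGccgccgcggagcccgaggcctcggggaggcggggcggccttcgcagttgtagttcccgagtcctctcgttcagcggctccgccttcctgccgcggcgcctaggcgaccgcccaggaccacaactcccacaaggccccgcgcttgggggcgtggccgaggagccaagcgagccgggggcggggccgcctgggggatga
TXNDC5, minus strand, in an intron of its longer transcripts, chr6:7910078-7910327: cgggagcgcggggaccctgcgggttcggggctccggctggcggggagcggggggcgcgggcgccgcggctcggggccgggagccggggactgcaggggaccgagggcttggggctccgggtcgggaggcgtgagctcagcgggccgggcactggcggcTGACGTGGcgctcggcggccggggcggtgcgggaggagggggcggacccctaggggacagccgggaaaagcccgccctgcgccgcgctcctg
PDIA4, minus strand, chr7:149028642-149028740: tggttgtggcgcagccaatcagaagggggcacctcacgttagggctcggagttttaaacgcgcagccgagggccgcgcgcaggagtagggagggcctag

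Levels were compared between genes on the deposited FPKM, which are per transcript length. P4HB was the most abundant, at 364 ± 12.4 FPKM in the control group (SD, n = 5), and ERO1B the least, at 0.927 ± 0.129, a 392-fold span. Between them in the control group stood PDIA6 at 186 ± 3.12, TXNDC5 at 107 ± 4.78, PDIA3 at 104 ± 13.9 and PDIA4 at 63.4 ± 2.42 FPKM. PDIA5 followed at 24.2 ± 1.23, ERO1A at 20.4 ± 0.876, ERP44 at 10.2 ± 0.586 and DNAJC10 at 8.77 ± 1.25. The ranges of neighbours in this order overlapped for TXNDC5 with PDIA3 and for ERP44 with DNAJC10, while each other pair of neighbours was separate in all 5 control libraries. Within libraries, ERP44 stood above DNAJC10 in every control, and TXNDC5 above PDIA3 in every control except replicate 2. With high glucose, ERO1A (26.4 ± 1.98 FPKM) stood above PDIA5 (21.3 ± 1.39), the reverse of their control order, again with separate ranges. DNAJC10 (9.85 ± 1.22) then stood above ERP44 (9.48 ± 0.805) with overlapping ranges, and within each high glucose library except HG_1. An order by FPKM depends on the length assigned to each gene, and the longest coding transcript of DNAJC10 has 20129 bases. By CPM, not scaled by length, DNAJC10 was at 182 ± 21.1 in the controls. That was near PDIA4 (192 ± 6.01) and above ERO1A (103 ± 4.76) and ERP44 (48.4 ± 2.13).

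P4HB alone made up 40.9% ± 1.34 of the summed FPKM of the 10 genes in controls and 44.9% ± 3.98 with high glucose (SD, n = 5 per group). The sum was 889 ± 15.2 FPKM in controls and 935 ± 77.5 with high glucose. HG_5 held the lowest sum of all, 803 FPKM, below the control range of 866 to 905, and the other 4 high glucose libraries lay above that range at 945 to 995. Summed as CPM, HG_5 was again the lowest (2652) and HG_2 (2753) lay inside the control range of 2689 to 2812. Total isomerase and oxidase RNA thus overlapped between the groups.

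**Figure D1:**
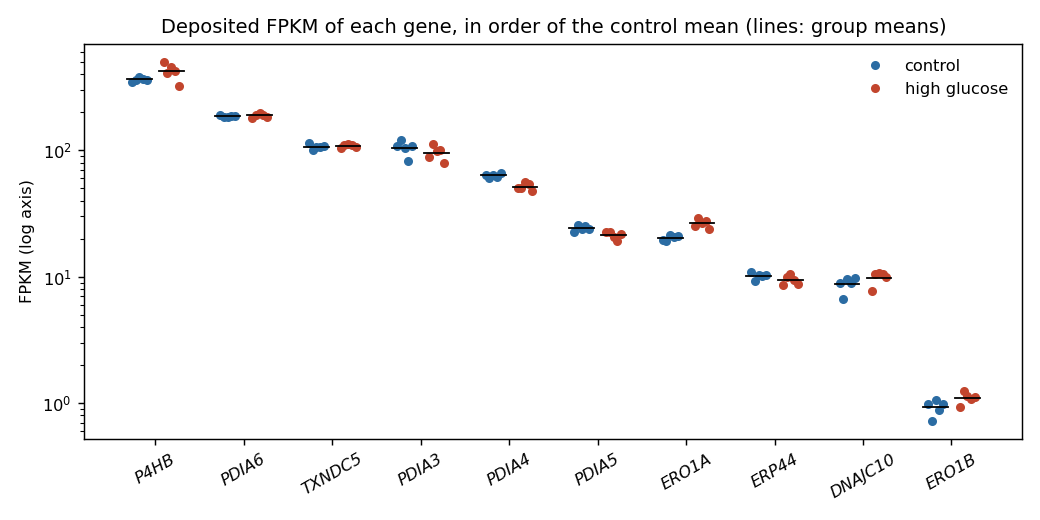
Deposited FPKM (log axis) of the 10 genes in 5 control (blue) and 5 high glucose (red) libraries, with lines for group means. P4HB lies at 321 to 501 FPKM and ERO1B at 0.725 to 1.24, and ERO1A and PDIA5 exchange places between the groups.

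Of the 10 genes, all of which passed the filter on low counts, 3 had an adjusted p under 0.05 in edgeR's quasi-likelihood test: ERO1A was higher in high glucose, and PDIA3 and PDIA4 were lower. Over all 14936 rows tested the same threshold was passed by 15.4%, 7.62% of them higher and 7.80% lower, so 3 of 10 is a count to be read against 15.4%. The same 3 genes were those whose groups did not overlap in CPM, which held for 13.6% of all rows. The median log2 fold change of the 10 genes was 0.01 and that of all rows 0.001. With the GC and length trend removed, 6 of the 10 passed, against 28.1% of 13538 rows. Without HG_1 and control replicate 2, 5 of the 10 passed, against 27.1% of 14899 rows. Both settings added PDIA5 and DNAJC10, and the first also P4HB.

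**Figure D2:**
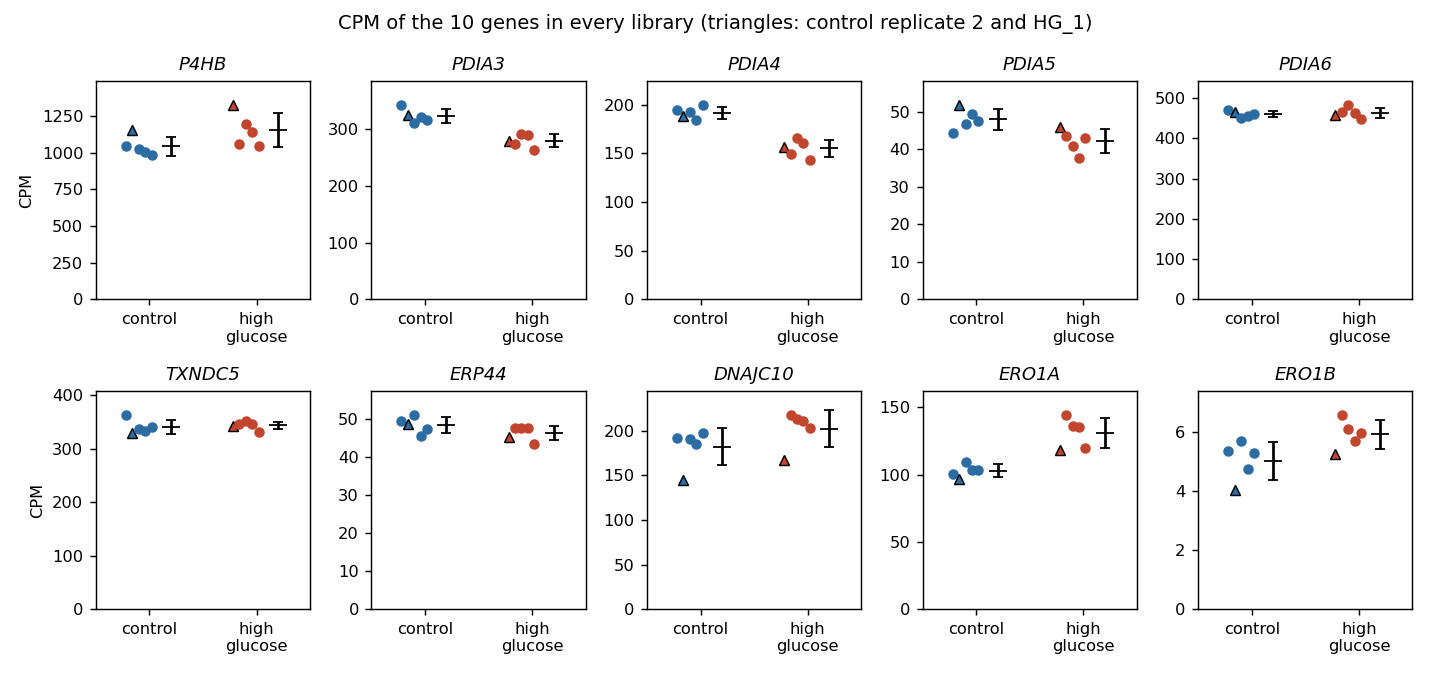
CPM of each of the 10 genes in 5 control (blue) and 5 high glucose (red) libraries, with group mean and SD in black and triangles for control replicate 2 and HG_1. The groups are separate for PDIA3, PDIA4 and ERO1A, and in both groups the triangle is the lowest point for DNAJC10 and the highest for P4HB and PDIA5.

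P4HB, the archetypal isomerase and the beta subunit of collagen prolyl 4-hydroxylase, lies on chromosome 17 from 81843159 to 81860694, minus strand (GRCh38, GENCODE release 29, as for all positions of genes here). It was at 1049, 1154, 1024, 1006 and 987 CPM in control replicates 1 to 5 and at 1328, 1059, 1193, 1142 and 1049.5 in HG_1 to HG_5. Its highest values in each group came from control replicate 2 and HG_1, the pair with the GC trend, and the groups overlapped. The log2 fold change was 0.14 (SE 0.0708, edgeR adjusted p = 0.209), a difference that did not pass. With the GC and length trend removed it was 0.14 with a smaller standard error and passed (SE 0.0393, edgeR adjusted p = 0.0175), while leaving out both libraries gave 0.13 (edgeR adjusted p = 0.0617) and leaving out HG_1 alone 0.09. An antisense gene with no row in the table, AC145207.3, covers 13.5% of the 100-base windows of the longest coding P4HB transcript. Whether the counting used strand is not given in the sources used here, so that reads of a gene and its antisense partner cannot be told apart.

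PDIA3 (ERp57), the isomerase that works with calnexin and calreticulin on glycoproteins and in the MHC class I loading complex, lies on chromosome 15 from 43746392 to 43773279, plus strand. PDIA3 was at 343, 324, 310.4, 322 and 317 CPM in control replicates 1 to 5 and at 279, 274, 292, 289 and 263 in HG_1 to HG_5. No high glucose library reached the lowest control, with 292 as the highest of one group and 310.4 as the lowest of the other. The log2 fold change was -0.21 (SE 0.0430, edgeR adjusted p = 0.00769). It was -0.23 with the GC and length trend removed and -0.21 without HG_1 and control replicate 2, and passed in both.

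By FPKM the groups of PDIA3 overlapped, at 109, 119.8, 104, 81.8 and 108 FPKM in control replicates 1 to 5 and 88.1, 112, 98.7, 100.1 and 79.2 in HG_1 to HG_5, and limma on log2(FPKM + 1) gave -0.13 on that scale (adjusted p = 0.528). The ratio of CPM to FPKM for this gene ranged from 2.46 in HG_2 to 3.93 in control replicate 4, so that the deposited FPKM were not a fixed multiple of the counts. Its call thus rests on the counts. Other genes hold 24.8% of the 100-base windows of PDIA3-201, its longest coding transcript, mainly ELL3, which overlaps it on the opposite strand with 627 shared exonic bases, and also the overlapping ENSG00000262560 and CATSPER2P1 and the pseudogene PDIA3P1. ELL3 was at 0.914 to 1.32 CPM in the controls and ENSG00000262560 at 0 to 0.637, both far under PDIA3, and neither passed the test. With the counts of ELL3 and ENSG00000262560 added to its own, an alternative chosen after seeing the data, PDIA3 was still lower (-0.21, edgeR adjusted p = 0.00801).

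PDIA4 (ERp72), an isomerase with several thioredoxin-like domains, fell most among the 10 genes. The gene lies on chromosome 7 from 149003062 to 149028641, minus strand, and shares no exonic base with another annotated gene. It was at 194, 188, 192, 184 and 199.96 CPM in control replicates 1 to 5 and at 156, 149, 166, 161 and 143 in HG_1 to HG_5. All high glucose libraries lay below all control libraries, and HG_3, the highest of them at 166, stayed under the lowest control value of 184. The mean went from 192 ± 6.01 to 155 ± 9.01 CPM (SD, n = 5 per group), a log2 fold change of -0.31 (SE 0.0477, edgeR adjusted p = 0.00174). The groups were also separate by FPKM, at 63.4 ± 2.42 and 51.8 ± 3.17. In CPM, neither HG_1 nor control replicate 2 was at an extreme of its group. Across the alternatives run, the log2 fold change stayed between -0.33 and -0.28 and the adjusted p under 0.05.

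PDIA5 (PDIR), an isomerase reported to act on the stress sensor ATF6, lies on chromosome 3 from 123067062 to 123225227, plus strand. It was at 44.4, 51.8, 46.6, 49.4 and 47.5 CPM in control replicates 1 to 5 and at 45.9, 43.6, 40.7, 37.7 and 42.9 in HG_1 to HG_5. HG_1 was the highest high glucose library and lay above control replicate 1, the lowest of the controls, so that the groups overlapped through this pair alone. The log2 fold change was -0.18 (SE 0.0640, edgeR adjusted p = 0.078), which did not pass. Without HG_1 it was -0.21 (edgeR adjusted p = 0.0348), with the GC and length trend removed -0.22 (edgeR adjusted p = 0.00348), and without HG_1 and control replicate 2 -0.19 (edgeR adjusted p = 0.0327). DESeq2 gave -0.19 with an adjusted p of 0.0403, so the call of this gene turned on the setting. SEC22A, which overlaps it on the same strand with 490 shared exonic bases, was at 19.96 ± 1.30 CPM in the controls and 19.6 ± 0.982 with high glucose (edgeR adjusted p = 0.842).

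PDIA6 (P5), an isomerase that binds the chaperone HSPA5, lies on chromosome 2 from 10783391 to 10837977, minus strand. It was at 469, 464, 449.9, 454 and 460.5 CPM in control replicates 1 to 5 and at 458, 464, 483, 463 and 449 in HG_1 to HG_5. Both groups lay within 449 to 483 CPM, and the log2 fold change was 0.01 (SE 0.0344, edgeR adjusted p = 0.872). Its sign turned with the GC and length trend removed (-0.03) and without HG_3 (-0.004).

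ATP6V1C2, which encodes part of the V-ATPase, meets PDIA6 tail to tail on the opposite strand over 1720 bases (10783391 to 10785110 of chromosome 2), with 1033 exonic bases in common. Those bases account for 32.4% of the 100-base windows of the longest coding PDIA6 transcript and 27.9% of those of ATP6V1C2. ATP6V1C2 was at 1.97, 2.04, 2.31, 1.97 and 1.24 CPM in control replicates 1 to 5 and at 25.7, 22.9, 5.53, 20.5 and 5.14 in HG_1 to HG_5. All high glucose values lay above all controls, and they were unequal, with HG_1, HG_2 and HG_4 near one another and HG_3 and HG_5 near 5 CPM. The log2 fold change was 3.07 (SE 0.476, edgeR adjusted p = 0.00169). By limma it was 1.70 on log2(FPKM + 1) and 2.62 on log2(FPKM + 0.1), also with a call in both. Its counts equalled 0.268% to 0.513% of those of PDIA6 in the control group and 1.14% to 5.62% in the high glucose group. Such a share is of the size of the spread of PDIA6 between libraries, so the level of PDIA6 cannot show whether reads passed from one row to the other. With both rows added together, an alternative chosen after seeing the data, the log2 fold change was 0.05 (edgeR adjusted p = 0.356).

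**Figure D3:**
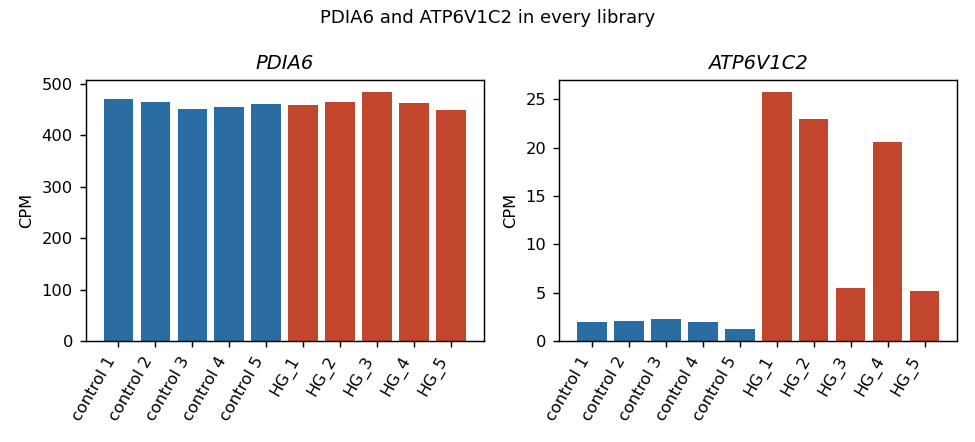
CPM of PDIA6 (left) and of ATP6V1C2 (right, on its own scale) in control replicates 1 to 5 (blue) and HG_1 to HG_5 (red). PDIA6 stays within 449 to 483 CPM, while ATP6V1C2 goes from 1.24 to 2.31 CPM in the controls to 5.14 to 25.7 in high glucose.

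TXNDC5 (ERp46), an isomerase with a strong oxidizing role on collagens and other secreted proteins, lies on chromosome 6 from 7881517 to 7910814, minus strand. It was at 364, 330.0, 337, 333 and 341 CPM in control replicates 1 to 5 and at 342, 345, 352, 345 and 332 in HG_1 to HG_5. The high glucose values lay inside the control range, and the log2 fold change was 0.01 (SE 0.0384, edgeR adjusted p = 0.912). Its sign turned with the GC and length trend removed (-0.003) and without control replicate 2 (-0.0009). The readthrough gene BLOC1S5-TXNDC5 holds 89.4% of the windows of its longest coding transcript and was listed at 0 counts in all 10 libraries, so that shared reads were not counted there.

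ERP44 retains ERO1 oxidases and unassembled client proteins in the early secretory pathway by a thiol bond. It lies on chromosome 9 from 99979179 to 100099040, minus strand, with no exonic base shared with another gene. ERP44 was at 49.5, 48.6, 51.1, 45.5 and 47.3 CPM in control replicates 1 to 5 and at 45.2, 47.7, 47.7, 47.6 and 43.5 in HG_1 to HG_5. HG_2, HG_3 and HG_4 lay inside the control range and HG_1 and HG_5 below it, and no group difference passed (log2 fold change -0.06, SE 0.0494, edgeR adjusted p = 0.457). The value was -0.04 without HG_5, and by limma -0.10 on log2(FPKM + 1) and -0.11 on log2(FPKM + 0.1), without a call.

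DNAJC10 (ERdj5) couples a J domain to thioredoxin domains and reduces disulfides of misfolded proteins before their degradation. It lies on chromosome 2 from 182716041 to 182794464, plus strand. It was at 192, 145, 191, 186 and 198 CPM in control replicates 1 to 5 and at 167, 218, 214, 211 and 203 in HG_1 to HG_5. The lowest value of each group came from the library with the GC trend, 145 in control replicate 2 and 167 in HG_1, and the other 4 high glucose libraries lay above the other 4 controls. With all libraries the log2 fold change was 0.15 (SE 0.0947, edgeR adjusted p = 0.339), which did not pass. Without both libraries it was 0.14 with a smaller standard error (0.0311) and passed (edgeR adjusted p = 0.00927), and with the GC and length trend removed it was 0.20 (edgeR adjusted p = 0.00608). Leaving out control replicate 2 alone gave 0.08 and leaving out HG_1 alone 0.22, without a call in either.

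ERO1A, the broadly expressed oxidase, was the one gene of the 10 called higher in the main fit. It lies on chromosome 14 from 52639916 to 52695900, minus strand. It was at 101, 96.8, 109.8, 104 and 104 CPM in control replicates 1 to 5 and at 118, 145, 136, 136 and 120.2 in HG_1 to HG_5. All 5 high glucose values exceeded all 5 controls, with HG_1 and HG_5 the lowest of them and HG_2 the highest. The mean went from 103 ± 4.76 to 131 ± 11.4 CPM (SD, n = 5 per group), a log2 fold change of 0.35 (SE 0.0631, edgeR adjusted p = 0.004), or 27.3%. Across the alternatives run it stayed between 0.31 and 0.39 with an adjusted p under 0.05. An antisense gene with no row in the table, AL133453.1, covers 8.43% of the windows of its longest coding transcript. Relative to its substrate P4HB, ERO1A was at 5.60% ± 0.174 of the FPKM in controls and at 6.38% ± 0.994 with high glucose. In HG_1 it was 5.03%, below all controls, so that this ratio of FPKM did not separate the groups. HG_1, a library with the GC trend, also held the highest P4HB of all, at 501 FPKM. For P4HB, CPM per FPKM ranged from 2.68 to 3.20 in controls and from 2.59 to 3.27 with high glucose.

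ERO1B, the second oxidase, known for its role in insulin-producing cells, lies on chromosome 1 from 236215555 to 236281985, minus strand. It was at 5.37, 4.04, 5.70, 4.75 and 5.28 CPM in control replicates 1 to 5 and at 5.25, 6.59, 6.11, 5.71 and 5.96 in HG_1 to HG_5. HG_1, the lowest high glucose library, lay under 3 controls, and the log2 fold change was 0.24 (SE 0.115, edgeR adjusted p = 0.206). By limma it was 0.13 on log2(FPKM + 1) and 0.23 on log2(FPKM + 0.1), without a call. A p that misses the threshold does not show that its level was equal, and its standard error was the largest of the 10. ERO1A exceeded it in FPKM by 22.3 ± 2.76 times in controls and 24.1 ± 2.14 times with high glucose (SD, n = 5 per group). GPR137B overlaps its span on the opposite strand without a shared exonic base and was higher in high glucose (0.42, SE 0.0937, edgeR adjusted p = 0.0115).

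**Figure D4:**
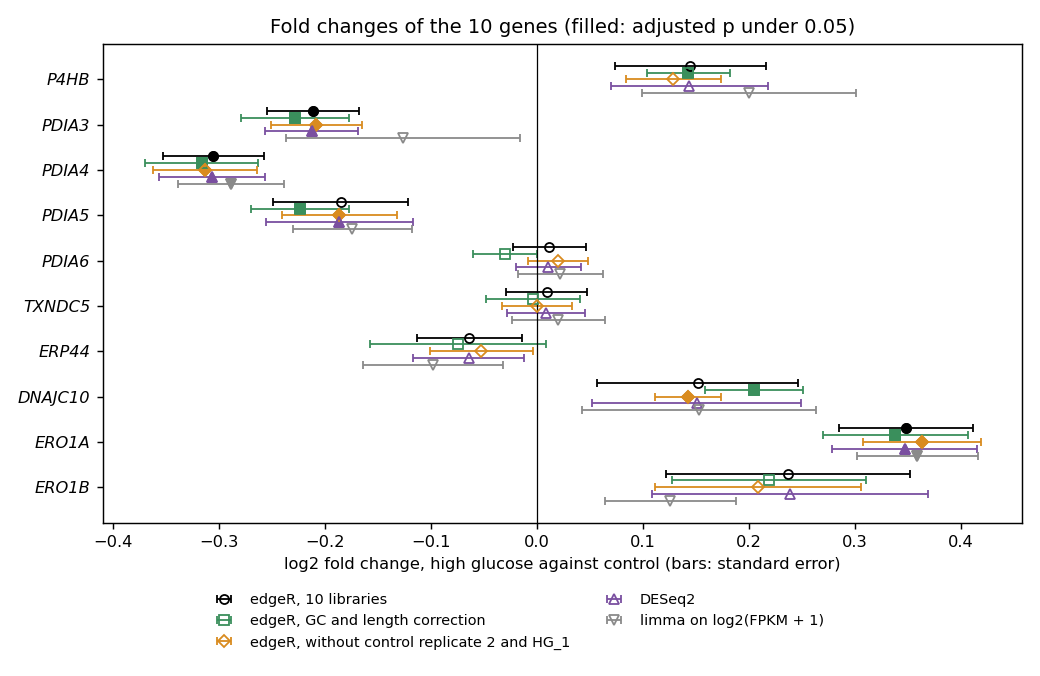
Log2 fold change (high glucose against control, bars for the standard error) of the 10 genes in 5 fits, with filled symbols for an adjusted p under 0.05. ERO1A and PDIA4 are filled in all 5, PDIA3 in all except limma on log2(FPKM + 1), and PDIA6 and TXNDC5 lie near 0 in all 5.

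The family has other members, of which 9 of 16 listed could be tested. Of these, 2 were higher, 0 lower and 7 did not pass, where 15.4% of all rows tested passed, and the median log2 fold change was 0.06. TMX4, a membrane-bound reductase, was at 33.5 ± 1.90 CPM in the controls and 42.4 ± 2.00 with high glucose (0.34, SE 0.0558, edgeR adjusted p = 0.0023). TXNDC15 was at 44.8 ± 1.22 and 50.4 ± 2.67 CPM (0.17, SE 0.0487, edgeR adjusted p = 0.036). Both were higher in 5 of 5 libraries, but TXNDC15 did not pass in 8 of the 10 fits that left out 1 library, all except those without HG_1 or HG_5, with an edgeR adjusted p of up to 0.0819. It passed without HG_1 and control replicate 2 together (0.17, edgeR adjusted p = 0.0204) and with the GC and length trend removed (0.16, edgeR adjusted p = 0.0108). The most abundant others, ERP29 (0.17, edgeR adjusted p = 0.191) and TMX2 (0.06, edgeR adjusted p = 0.74), did not pass. Without HG_1 and control replicate 2, 5 of the 9 passed, and 27.1% of all rows did. Untested for low counts were PDIA2, PDILT, ERP27, AGR2, AGR3, CASQ1 and CASQ2, which have known roles in pancreas, testis, mucous epithelia or muscle and were at 0 to 0.364 CPM.

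Other routes to disulfides, and enzymes that use the hydrogen peroxide ERO1 makes, were tested for 8 of 9 listed genes, since GPX7 was at 0 in every library. Of the 8, 2 were higher, 0 lower and 6 did not pass (15.4% of all rows passed, median log2 fold change 0.02). Both of those higher are known peroxidases of the ER. PRDX4 was at 77.8 ± 4.36 CPM in the controls and 93.2 ± 8.69 with high glucose (0.26, SE 0.0672, edgeR adjusted p = 0.0241), and GPX8 at 65.6 ± 3.81 and 79.7 ± 5.89 CPM (0.28, SE 0.0624, edgeR adjusted p = 0.012). Each was separate between the groups. With the GC and length trend removed, PRDX4 was at 0.17 (edgeR adjusted p = 0.00544), and without HG_1 and control replicate 2 at 0.24 (edgeR adjusted p = 0.00108). It did not pass without control replicate 1, 3, 4 or 5 or without HG_3 (edgeR adjusted p of 0.0507 to 0.0613). The sulfhydryl oxidase QSOX1 (0.05, edgeR adjusted p = 0.667) and the selenoprotein SELENOF (-0.01, edgeR adjusted p = 0.921), the most abundant of the others, did not pass.

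Among known partners of the 10 genes, 11 of 12 were tested, of which 0 were higher, 2 lower and 9 did not pass, beside the 15.4% of all rows that passed (median log2 fold change -0.08). HSPA5 (BiP), the ER chaperone that PDIA6 and DNAJC10 bind, was at 998, 908, 929.8, 953 and 954 CPM in control replicates 1 to 5 and at 563, 586, 608, 532 and 567 in HG_1 to HG_5 (-0.73, SE 0.0455, edgeR adjusted p = 1.95e-05). CALR, the lectin chaperone that recruits PDIA3, was at 1829.7, 2155, 1838, 1831 and 1835 CPM in the same controls and at 1547, 1283, 1390.5, 1230.2 and 1210.5 with high glucose (-0.51, SE 0.0765, edgeR adjusted p = 0.00142). Both were separate between the groups, as was PDIA3. CANX, the membrane-bound lectin partner of PDIA3 (-0.12, SE 0.0899, edgeR adjusted p = 0.432), and P4HA1, the catalytic partner of P4HB in collagen prolyl 4-hydroxylase (0.03, SE 0.0992, edgeR adjusted p = 0.897), did not pass. MTTP, which pairs with P4HB in lipoprotein assembly, was not tested, at no more than 0.505 CPM.

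Genes listed as regulators of ER or redox genes were all tested, and of the 9 genes 2 were higher, 3 lower and 4 did not pass (15.4% of all rows passed, 7.62% higher and 7.80% lower). Their median log2 fold change was -0.03. ATF4 was at 284 ± 23.7 CPM in the controls and 373 ± 37.4 with high glucose (0.40, SE 0.0768, edgeR adjusted p = 0.00583), and DDIT3 (CHOP), which is known to induce ERO1A, at 23.4 ± 4.22 and 40.1 ± 6.98 CPM (0.78, SE 0.144, edgeR adjusted p = 0.00441). XBP1, the factor of the IRE1 branch, was lower (-0.31, SE 0.0667, edgeR adjusted p = 0.00999). EIF2AK3 (PERK) was also lower (-0.39, SE 0.105, edgeR adjusted p = 0.0282), but not without control replicate 1, 3, 4 or 5 or without HG_3 (edgeR adjusted p of 0.0554 to 0.0734), and not with library size alone (edgeR adjusted p = 0.052) or by FPKM (limma on log2(FPKM + 1), adjusted p = 0.0582, but 0.0483 among genes at a mean of at least 1 FPKM). With the GC and length trend removed it passed at -0.41 (edgeR adjusted p = 0.000613), and without HG_1 and control replicate 2 at -0.37 (edgeR adjusted p = 0.000687). NRF1, nuclear respiratory factor 1, was lower at -0.22 (SE 0.0669, edgeR adjusted p = 0.0457), and did not pass in 8 of the 10 fits without 1 library, all except those without control replicate 3 or HG_1 (edgeR adjusted p of up to 0.112). It also did not pass without filter (edgeR adjusted p = 0.0652), with at least 10 counts required in every library (0.0514), without both libraries with a GC trend (0.0522) or by FPKM. It passed with that trend removed (-0.22, edgeR adjusted p = 0.0228), with DESeq2 (adjusted p = 0.0209) and under the other scalings. HIF1A (-0.37, SE 0.145, edgeR adjusted p = 0.118) and NFE2L2 (0.09, SE 0.0822, edgeR adjusted p = 0.511) did not pass, nor did ATF6 and ERN1. The RNA level of XBP1 does not give its splicing, which the tables do not hold.

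ERO1A is also a known hypoxia-response gene, and of 12 others of that kind 11 were tested. Of these, 6 were higher, 1 lower and 4 did not pass, while of all rows 7.62% were higher and 7.80% lower. The median log2 fold change was 0.34, and that of all rows tested 0.001. The list was written with earlier results of these data known, so its counts and median only describe it. VEGFA was at 50.8, 45.9, 46.7, 46.5 and 49.1 CPM in control replicates 1 to 5 and at 80.8, 97.4, 95.0, 86.1 and 76.0 in HG_1 to HG_5 (0.87, SE 0.0722, edgeR adjusted p = 6.97e-05). In every high glucose library VEGFA, a growth factor of blood vessels, stood above every control. CA9 (1.07, edgeR adjusted p = 0.00265), BNIP3 (0.58, edgeR adjusted p = 0.00113), LDHA (0.52, edgeR adjusted p = 0.0138) and NDRG1 (0.34, edgeR adjusted p = 0.00988) were likewise separate and higher. LDHA did not pass by FPKM (limma on log2(FPKM + 1), adjusted p = 0.209). PDK1 was higher at 0.50 (SE 0.139, edgeR adjusted p = 0.0338) and did not pass in 8 of the 10 fits without 1 library, all except those without control replicate 5 or HG_1 (edgeR adjusted p of up to 0.0819), nor by FPKM (0.32 by limma on log2(FPKM + 1)). It passed without HG_1 and control replicate 2 together (0.56, edgeR adjusted p = 0.000867) and with the GC and length trend removed (0.53, edgeR adjusted p = 0.000251). SLC2A1, the glucose transporter GLUT1, went the other way, from 916 ± 49.2 to 586 ± 42.0 CPM (-0.64, SE 0.0578, edgeR adjusted p = 9.8e-05). The most abundant of those that did not pass were ADM (0.08, edgeR adjusted p = 0.344) and KDM3A (0.16, edgeR adjusted p = 0.463). Oxygen in the cultures was not measured in these data, and its part in the level of ERO1A was not tested.

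**Figure D5:**
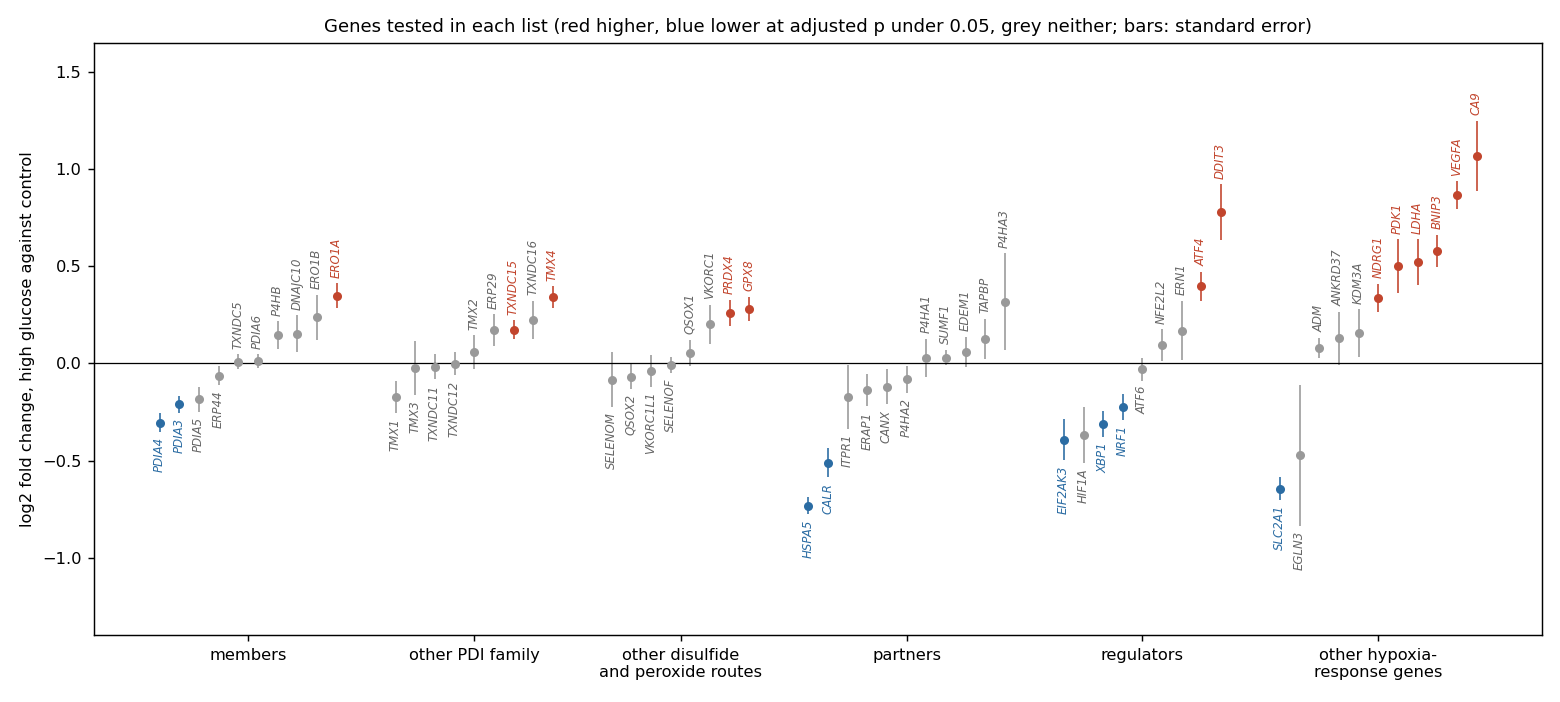
Log2 fold change with standard error for the 10 genes and for each tested gene of 5 lists. Red marks genes higher and blue genes lower at an adjusted p under 0.05, with HSPA5 at -0.73 as the lowest point and CA9 at 1.07 as the highest.

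For ERO1A and PDIA4, the genes with the largest calls, patterns over the 10 libraries were compared with those of 9982 genes at a mean of at least 10 CPM, as the root mean square difference of log2 CPM from each gene's own control mean. Nearest to ERO1A were AP1S2 (difference 0.0522), EHD3 (0.0567) and EPAS1 (0.0584), with log2 fold changes of 0.37, 0.31 and 0.39. Among those near PDIA4 were MYO9B (0.0469) and MLXIP (0.0529), with log2 fold changes of -0.29 and -0.35. Likeness here reflects both the group difference and the spread between libraries.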

How the data were processed

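The authors deposited a table of whole-number read counts per gene, without normalization, and a table of FPKM, which the authors had scaled by transcript length and library size. Both hold 22626 rows for 10 libraries. In the count table, 2163 rows carry identifiers that start with MSTRG and hold 1.34% to 1.65% of the counts. The submitters' processing notes name fastp 0.20.1, HISAT2 2.2.1 and GRCh38. The counting program, annotation and use of strand are not given in the sources used here.

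The 2 groups were compared with edgeR 4.0.16 in R 4.3.3 on the deposited counts: default filter on low counts (14936 rows left), TMM, quasi-likelihood test and Benjamini-Hochberg adjustment over all rows left. Log2 CPM had a prior count of 2. DESeq2 1.42.0 and limma 3.58.1 (FPKM with 1 or 0.1 added) served as alternatives, beside other scalings and filters, each library left out, both libraries with a GC trend left out, a lowess correction for GC and length (span 0.3, GENCODE release 29), and the column number as a block. Promoters were searched for exact motif matches on both strands. The fitting steps were tested on simulated data.

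No 2 libraries of a group were as alike as repeated sampling of 1 library would make them. The control columns carry replicate numbers. The high glucose libraries are named by deposited column, since only their group could be matched to the labels. Total counts of 32448991 to 45864176 set the precision.

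Named are the 10 genes, genes annotated over them, TXNIP and ARRDC4, in each list every gene with an adjusted p under 0.05 and the 2 most abundant others, and genes from the 3 most alike to each of the 2 called genes furthest from 0. Of the markers and of the genes most alike to PDIA4, 1 each is not reported here. Other genes were named after their values were seen. The genes and lists were chosen with earlier results of these data known.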

Additional observations from a re-analysis of the deposited data

Results flagged for a closer look

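A library stood far from the rest of its group in 6 of 68 groups of 5 values (named genes, total counts and the summed FPKM of the 10 genes). At about 1 in 20, chance alone gives 3.4 such groups. Control replicate 2 held 4 of them: DNAJC10 at 145 CPM (186 to 198 in the remaining controls), CALR at 2155 (1830.0 to 1838), XBP1 at 92.8 (81.3 to 84.2) and ATF4 at 325 (267 to 277). PRDX4 in HG_1 was at 108 CPM, with 86.8 to 92.2 in HG_2 to HG_5. Counts of both libraries rose with GC content. The summed FPKM of the 10 genes was 803 in HG_5 and 945 to 995 in HG_1 to HG_4. For P4HB, HG_5 had 3.27 CPM per FPKM and HG_1 to HG_4 had 2.59 to 2.70, while control replicates 1 and 2 had 3.02 and 3.20 and the remaining controls 2.68 to 2.75.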

How the results depend on the processing

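Alternatives were run for the 10 genes, ATP6V1C2, GPR137B, TXNIP, ARRDC4 and the called genes of the lists, and none of those called in the main fit changed direction. Of 353 comparisons of a fold change with another setting, 320 kept direction and side of the threshold, and of 320 with 1 library left out, 283 did. Counts of calls stayed within 1.5 times the main count in 66 of 77 and 53 of 70. Higher genes were 47.4% to 53.8% of all calls (49.4% in the main fit). With the GC and length correction, 6 of the 10 genes (main fit 3) and 3798 of all genes (main fit 2303) passed, with log2 fold changes of 0.205 for DNAJC10, 0.143 for P4HB and -0.223 for PDIA5, and the uncalled PDIA6 (-0.0302) and TXNDC5 (-0.00346) changed sign. Without control replicate 2 and HG_1, 5 of the 10 genes, 5 of the other family members (main fit 2) and 4035 of all genes passed, with DNAJC10 at 0.143 and PDIA5 at -0.186. DESeq2 gave -0.186 for PDIA5, with a call. For PDIA3, limma gave no call, at -0.127 with 0.1 added to the FPKM and -0.126 with 1 added, which was -0.126 also among genes at a mean of at least 1 FPKM. Limma called 3 regulators with either pseudocount and 4 among genes at a mean of at least 1 FPKM (main fit 5). Of all rows it called 2036 of 14936 with 1 added and 2000 of 14936 with 0.1 added (main fit 2303 of 14936). Among genes at a mean of at least 1 FPKM it called 1904 of 11943. The cause was not tested.

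Leaving out 1 library at a time gave -0.214 to -0.147 for PDIA5, -0.00368 to 0.0234 for PDIA6 and -0.0009 to 0.0331 for TXNDC5. Calls numbered 1 to 3 among the other family members, 1 to 3 among the other routes (main fit 2) and 3 to 5 among the regulators. Of all rows, 1648 of 15058 (without HG_3) to 2993 of 15077 (without HG_1) passed, against 2303 of 14936 in the main fit. Fewer libraries also lower the power.

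The labels number the controls and letter the high glucose samples, so only the deposited columns share numbers. Same-number columns correlated at -0.0656 to 0.0392 over 5 pairs, and 0 controls and 1 high glucose library (HG_3) correlated best with their own number. With the column number as a replicate block, 1071 of all genes passed, 1 of the other family members, 0 of the other routes and 3 regulators, and PDIA3 was at -0.211 with an edgeR adjusted p of 0.0597.

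Rows of overlapping genes were added together as an alternative chosen after seeing the data, and the calls of PDIA3 and PDIA6, the genes it applied to, were the same. Among the 10 genes depth limits ERO1B most, at 157 to 274 counts.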
